A study of Mus musculus with 16 samples.

Results

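Schwann cells are the glia of peripheral nerve, and in skeletal muscle they wrap the motor and sensory axons that run between the fibres. SOX10 holds them in their lineage, EGR2 switches on the myelin programme, and the sheath is then built from membrane proteins such as PMP22 and MBP in compact myelin and MAG and periaxin (Prx) in its uncompacted parts. S100b is a calcium-binding protein used to mark these cells. The transcripts of these 7 genes (Prx, Pmp22, Mag, Sox10, Egr2, S100b and Mbp) were followed in ageing calf muscle. Their probes were found by name, as those whose transcript accession belongs to 1 of the 7, and the rule uses no measured value, although the set was proposed with earlier results of these data known. The rule found 10 of 55588 probes, and 7 of the 21776 genes that could be tested.

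RNA came from gastrocnemius of female mice of the inbred C57Bl/6J strain, none of them treated, and aged 3, 15, 24 or 29 months. There were 4 samples per age, and every sample was hybridised to an array of its own that reads the brightness of Cy3-labelled RNA. Levels are log2 signal minus the 75th percentile of the same array, so 0 is the brightness that 75% of probes fall below, and differences are differences of these log2 values. The labels leave unsaid whether the 4 samples of an age were 4 animals, and p-values then cover only sample-to-sample spread, part of which may be technical. On each array 48.0% to 60.9% of non-control spots were bright enough to be marked well above background, and 0 were saturated. Arrays correlated with each other at 0.962 to 0.995 across the genes tested, each read by 1 probe. Array weights from limma were lowest, 0.265 to 0.513, on replicates 1 and 3 of 29 months and 2 and 4 of 24 months. The number of arrays limits the precision. Of the 14 fast and slow fibre genes listed as markers of the tissue, 14 were measured, and Ckm, the creatine kinase of muscle, had a mean of 9.46 at 3 months and 9.37 at 29 months. All arrays of 3 and 15 months were on slide 1 and all of 24 and 29 months on slide 2. The step from 3 to 15 months and the step from 24 to 29 months were therefore each made within a slide. In every other comparison age and slide cannot be told apart. Within a slide, age cannot be told apart from the row of the array. The arrays of 3 and 29 months were all in row 2 of their slide and those of 15 and 24 months in row 1.

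A probe was kept if every array of some age had it well above background, and 9 of the 10 passed. Prx, Mag, Sox10, Egr2 and S100b each had 1 probe. Pmp22 had 2 (A_55_P2040170 and A_55_P2040168, both for NM_008885), and the brighter, A_55_P2040170, stood for the gene. Mbp had 3, of which A_52_P604195 (NM_001025245) had the highest mean over the 16 arrays and stood for the gene, A_52_P329451 (NM_010777) was also measured, and A_55_P1992160 (NM_010777) was well above background on 1 of 16 arrays. A_52_P604195 had a higher mean than A_52_P329451 at 24 and 29 months and not at 3 months (−1.62 against −1.47) or 15 months (−1.123 against −1.117), so its choice rests on the levels at the old ages. Probes of 1 gene share their target gene and were not counted as separate genes.

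Upstream DNA is shown because SOX10 and EGR2 are themselves members and are known regulators of myelin genes. Prx and S100b are shown as the members with the widest range over arrays, and Mag for its pair of SOX matches, a choice made after the matches were seen. RefSeq's promoter table for GRCm38.p6 matched 5 of the 7 genes (Prx, Pmp22, Mag, Egr2 and S100b) with 14 windows of 300 bases. The 250 bases before the start of Prx (chr7:27499074-27499323, plus strand), S100b (chr10:76253586-76253835, plus strand) and the middle of the 3 listed starts of Mag (chr7:30914864-30915113, minus strand) read as follows, 5′ to 3′, with matches to either motif in capitals.
Prx: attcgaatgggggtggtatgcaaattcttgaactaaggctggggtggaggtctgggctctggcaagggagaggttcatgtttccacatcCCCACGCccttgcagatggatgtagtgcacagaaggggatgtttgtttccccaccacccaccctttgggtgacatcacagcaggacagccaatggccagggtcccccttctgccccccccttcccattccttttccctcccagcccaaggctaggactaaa
S100b: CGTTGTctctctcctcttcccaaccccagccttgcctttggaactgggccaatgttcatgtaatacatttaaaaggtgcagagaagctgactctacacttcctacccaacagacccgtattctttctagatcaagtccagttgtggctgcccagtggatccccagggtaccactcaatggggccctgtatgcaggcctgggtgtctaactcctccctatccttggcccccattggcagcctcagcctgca
Mag: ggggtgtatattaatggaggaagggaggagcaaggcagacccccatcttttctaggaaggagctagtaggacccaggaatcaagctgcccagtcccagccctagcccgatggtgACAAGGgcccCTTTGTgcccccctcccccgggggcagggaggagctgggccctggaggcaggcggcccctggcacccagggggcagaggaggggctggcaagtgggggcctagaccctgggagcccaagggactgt
The motifs searched on both strands were ACAANG, a loose form of the core that SOX proteins bind, and GCGNGGG, a loose form of the EGR core. N stands for any base, so a match can differ from the core proper at that position. The match in Prx was to the EGR pattern, and those in S100b and Mag were to the SOX pattern, which occurred as a facing pair in Mag. Over the windows, 5 of 14 held the SOX pattern, from 3 genes, against 41.2% of all 32851 promoter windows of this length in the table. The EGR pattern was in 7 of 14, also from 3 genes, against 23.2% of all windows. Several windows of 1 gene overlap, and a match is a run of letters, not a measured binding site.

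Prx and S100b were the members with the widest range. Prx, a scaffold protein that links the Schwann cell membrane to its cytoskeleton, was read at 1.36, 1.22, 3.75 and 4.06 in replicates 1 to 4 at 3 months and at 2.10, 3.51, 4.25 and 1.39 at 15 months. It was read at 0.11, 2.47, 0.63 and 2.0 at 24 months and at −0.04, 0.39, −1.04 and 2.33 at 29 months. Within each age a pair of arrays or a single one stood well above the rest: replicates 3 and 4 at 3 months, 2 and 3 at 15 months, 2 and 4 at 24 months and 4 at 29 months. All ages overlapped, and the highest and lowest arrays differed 39.2-fold. The means were 2.60 ± 1.52 (SD, n = 4) at 3 months, 2.81 ± 1.30 at 15, 1.30 ± 1.12 at 24 and 0.41 ± 1.41 at 29 months. The difference of 29 from 3 months was −2.19 (SE 0.86, 95% interval −4.03 to −0.35), which did not pass adjustment over all genes (limma adjusted p = 0.105). Here and below a gene is called at an adjusted p under 0.05. In bulk muscle, fewer Schwann cells and less RNA per Schwann cell cannot be told apart.

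S100b repeated that order of arrays. Its levels were −0.65, −0.95, 1.45 and 1.86 at 3 months, 0.46, 1.97, 2.37 and −0.19 at 15, −1.37, 0.63, −0.74 and 0.18 at 24, and −2.23, −1.48, −3.40 and 0.64 at 29 months. The 3 lowest arrays of all were replicates 3, 1 and 2 of 29 months, the last of them close to replicate 1 of 24 months, and replicate 4 of 29 months lay among the younger arrays. Replicate 3 of 29 months was not well above background. The highest and lowest arrays differed 54.5-fold. The mean was 1.15 ± 1.22 (SD, n = 4) at 15 months and −1.62 ± 1.70 at 29 months, a difference of −2.77 (SE 0.86, limma adjusted p = 0.0634), and 29 against 3 months gave −2.05 (adjusted p = 0.129).

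**Figure D1:**
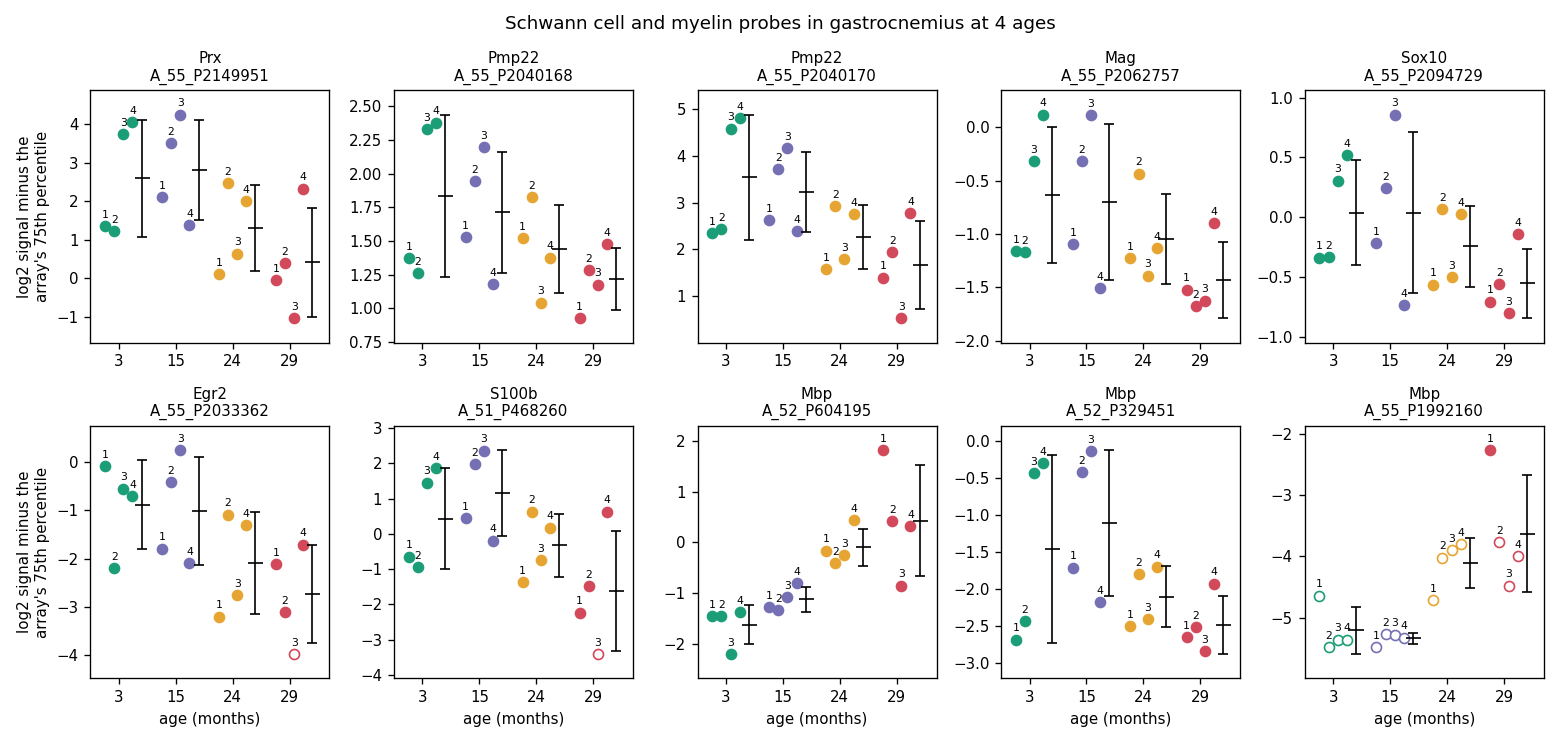
Level of each of the 10 probes, as log2 signal minus the array's 75th percentile, against age in months. Each point is 1 array, numbered by replicate, open where it was not well above background, and the bar to the right is mean ± SD of 4 arrays. In every panel but those of Mbp A_52_P604195 and A_55_P1992160 the mean at 29 months is below that at 3 months, and replicate 3 is above replicates 1 and 2 at 3 months except for Egr2.

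The other sheath genes of this group were Pmp22 and Mag. Pmp22, a tetraspan protein of compact myelin whose dosage underlies common inherited neuropathies, had levels of 2.35, 2.43, 4.59 and 4.82 at 3 months and 1.40, 1.94, 0.53 and 2.78 at 29 months on the brighter probe. At 15 months it was at 2.63, 3.73, 4.18 and 2.39, and at 24 months at 1.58, 2.93, 1.79 and 2.76. Only replicate 4 of 29 months reached the lower pair of 3 months. The mean went from 3.55 ± 1.34 (SD, n = 4) to 1.66 ± 0.95, a difference of −1.88 (SE 0.63, limma adjusted p = 0.0592), the closest to the threshold among the 6 genes other than Mbp. The dimmer probe had the same order of ages with smaller steps, from 1.84 ± 0.60 at 3 months to 1.21 ± 0.23 at 29 months, and its difference was −0.62 (adjusted p = 0.156 over all kept probes). Across arrays the 2 probes of Pmp22 gave r = 0.901. Mag, an adhesion molecule on the membrane that faces the axon, was at −1.16, −1.17, −0.32 and 0.12 at 3 months and at −1.52, −1.68, −1.62 and −0.90 at 29 months. At 15 months it was at −1.09, −0.32, 0.12 and −1.51, and at 24 months at −1.23, −0.43, −1.39 and −1.13. The 3 lower arrays of 29 months lay below the whole range of 3 months, and replicate 4 lay inside it. Its means were −0.63 ± 0.64, −0.70 ± 0.74, −1.05 ± 0.42 and −1.43 ± 0.36 (SD, n = 4) at 3, 15, 24 and 29 months, and 29 against 3 months gave −0.80 (SE 0.36, adjusted p = 0.162).

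Both transcription factors had lower means at the old ages, also without passing the test. Sox10 was at −0.34, −0.34, 0.31 and 0.52 at 3 months and at −0.71, −0.56, −0.80 and −0.14 at 29 months. At 15 months it was at −0.21, 0.24, 0.86 and −0.73, and at 24 months at −0.57, 0.06, −0.50 and 0.03. The ages overlapped, all 4 arrays of 29 months were below 0, and the 16 arrays spanned 3.16-fold. The difference was −0.59 (SE 0.30, limma adjusted p = 0.213). Egr2 was at −0.09, −2.20, −0.55 and −0.71 at 3 months, −1.80, −0.42, 0.24 and −2.10 at 15, −3.21, −1.10, −2.76 and −1.31 at 24, and −2.12, −3.11, −3.97 and −1.72 at 29 months. Replicate 1 of 3 months was the highest of its age for Egr2, unlike for Prx and the genes that varied with it, and replicate 3 of 29 months was not well above background. The means were −0.89 ± 0.92 (SD, n = 4) at 3 months and −2.73 ± 1.01 at 29 months, a difference of −1.84 (SE 0.66, adjusted p = 0.075). Egr2 is also induced within minutes by stimulation in many cells. Of 10 measured immediate early genes 2 were higher (Fos by 2.11, Maff by 1.53) and 1 was lower (Nr4a1, −1.19) at 29 than at 3 months by the same test. In this comparison 14.6% of all genes were called. Here and below, the mean of a gene list takes each gene relative to its own mean over the 16 arrays, so it is not a signal level. The mean of the immediate early genes was 0.25 to 1.04 on the 29-month arrays and −0.50 to 0.33 on those of 3 months. Its part in the Egr2 values was not tested.

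Mbp went the other way on the probe that stands for the gene. A_52_P604195 was at −1.46, −1.45, −2.20 and −1.38 at 3 months, −1.28, −1.34, −1.08 and −0.80 at 15, −0.16, −0.41, −0.25 and 0.44 at 24, and 1.81, 0.42, −0.85 and 0.33 at 29 months. The 4 arrays of 3 months all lay below the 4 of 24 and the 4 of 29 months, and replicate 3 of 29 months was just within the range of 15 months. The mean rose from −1.62 ± 0.39 (SD, n = 4) at 3 months to −0.10 ± 0.37 at 24 and 0.43 ± 1.09 at 29 months. The rise to 29 months was 2.05 (SE 0.40, 95% interval 1.20 to 2.91, 4.15-fold, limma adjusted p = 0.0036). The rise to 24 months was 1.53 (2.88-fold, adjusted p = 0.0435), and 29 against 15 months gave 1.55 (2.93-fold, adjusted p = 0.0294). Both steps within a slide were positive and did not pass: 0.50 from 3 to 15 months (adjusted p = 0.786), where the arrays of the ages did not overlap, and 0.52 from 24 to 29 months (adjusted p = 0.596). A straight line through the ages, fitted with a separate level for each slide, had a slope of 0.61 per 12 months (95% interval −0.16 to 1.38, adjusted p = 0.607).

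The other measured Mbp probe did not show this. A_52_P329451 was at −2.69, −2.44, −0.43 and −0.30 at 3 months, −1.72, −0.43, −0.14 and −2.18 at 15, −2.51, −1.81, −2.41 and −1.70 at 24, and −2.65, −2.52, −2.84 and −1.93 at 29 months. Its high arrays were those of Prx, and its means were −1.47 ± 1.27 (SD, n = 4) at 3 months and −2.49 ± 0.39 at 29 months, a difference of −1.02 (limma adjusted p = 0.238 over all kept probes). The dim probe A_55_P1992160 had means of −5.21 ± 0.38 and −5.34 ± 0.10 at 3 and 15 months and −4.10 ± 0.42 and −3.63 ± 0.95 at 24 and 29 months. It was well above background only on replicate 1 of 29 months, the array where A_52_P604195 was also highest. When the gene was read as the mean of its kept probes, 29 against 3 months became 0.52 (adjusted p = 0.324), so the call rests on A_52_P604195. The Mbp locus is known to make the classic myelin proteins and, from an earlier start, the Golli proteins found in lymphoid and neural cells. The sources used here do not say which of these products each probe reads.

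**Figure D2:**
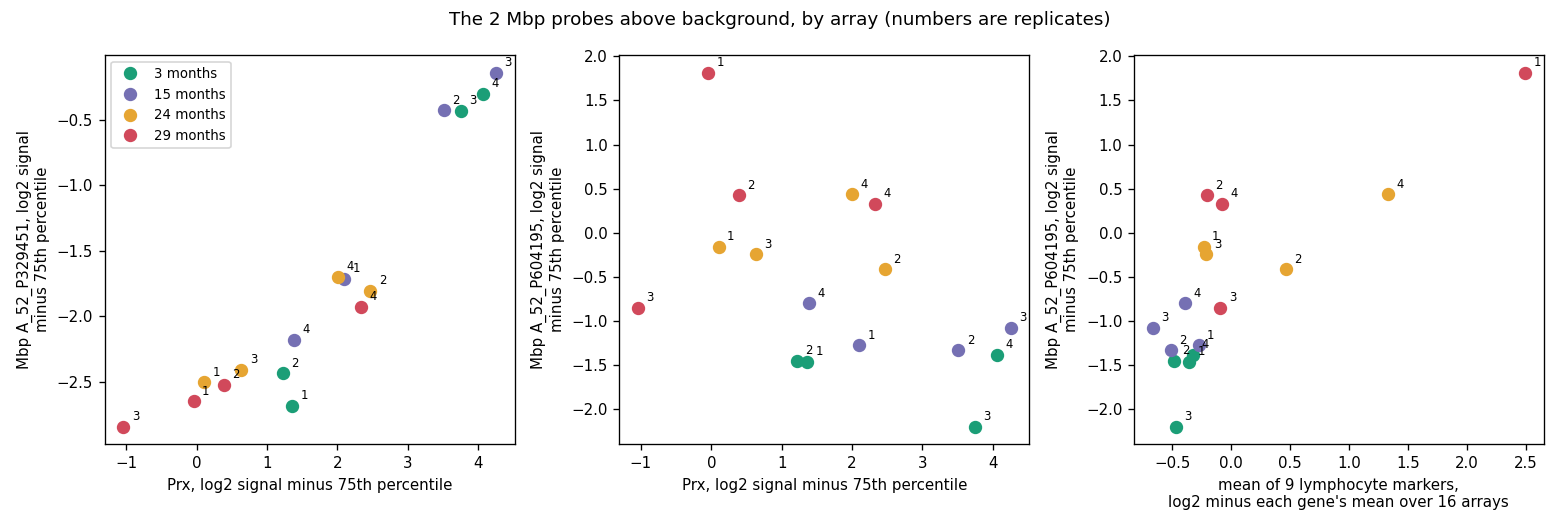
The 2 Mbp probes against Prx (left and middle, log2 signal minus the 75th percentile on both axes) and A_52_P604195 against the mean of 9 lymphocyte markers, each gene taken relative to its own mean (right). Points are arrays, coloured by age and numbered by replicate. A_52_P329451 rises along Prx over all ages (r = 0.936), A_52_P604195 does not (r = −0.510), and in the right panel replicate 1 of 29 months lies far out on both axes.

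Counting genes, 0 of the 7 were called at 15 against 3 months, where 0.978% of all genes were, and 1 of 7 at 24 against 3 months, where 4.66% were. At 29 against 3 months it was again 1 of 7, with 14.6% of all genes called. It was 0 of 7 at 24 against 15 months (0.0964% of all genes), 1 of 7 at 29 against 15 months (7.74%) and 0 of 7 at 29 against 24 months (1.91%). Each call was Mbp, higher at the older age. At an unadjusted p under 0.05, 6 of 7 members passed at 29 against 3 months, as did 28.7% of all genes, and 5 of 7 at 29 against 15 months (23.1%). For 24 against 3 months the count was 1 of 7 (21.2%), and likewise for 24 against 15 months (13.4%). None of the 7 passed for 29 against 24 months (15.3%), and 0 of 7 did so for 15 against 3 months (2335 of 21776 genes). At 29 against 3 months 6 of 7 members had negative differences, with a median of −1.84, beside a median of −0.036 over all genes. Within a slide, the median was 0.0010 from 3 to 15 months and −0.60 from 24 to 29 months, and the difference of those steps was called for 0 of 7 members (0.67% of all genes), and 0 of 7 passed at an unadjusted p under 0.05 (12.5%). The slope of the line with a level for each slide was also called for 0 of 7 (0.634% of all genes), again with 0 of 7 unadjusted (10.9%).

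Ordered by mean level, the ages ran 3, 15, 24 and 29 months from highest to lowest for Pmp22, Mag and Egr2, and 15, 3, 24 and 29 months for Prx, Sox10 and S100b. No neighbours in these orders differed beyond their spread: from the upper pair of ages to 24 months the step was 1.30 for Prx (limma adjusted p = 0.409 over all kept probes), 0.97 for Pmp22 (0.504), 1.07 for Egr2 (0.48), 0.76 for S100b (0.648), 0.35 for Mag (0.692) and 0.28 for Sox10 (0.626). From 24 to 29 months the steps were 0.31 to 1.29, with adjusted p of 0.526 to 0.715. For Mbp A_52_P604195 the order was 29, 24, 15 and 3 months from the highest. Its neighbours 24 and 15 months did not overlap, with a step of 1.03 that did not pass (adjusted p = 0.298). S100b had the most unequal steps within a slide, 0.72 from 3 to 15 months and −1.29 from 24 to 29 months, and the difference between them was −2.01 (SE 1.22, adjusted p = 0.551).

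**Figure D3:**
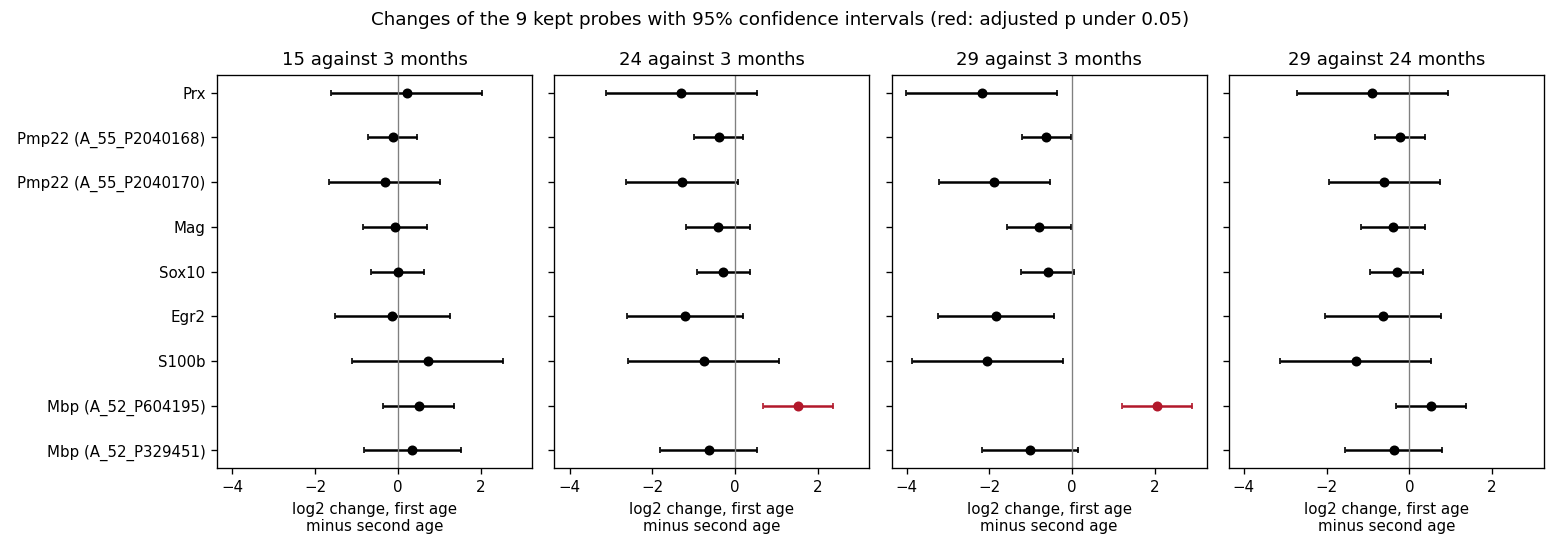
Log2 change of the 9 kept probes in 4 comparisons, first age minus second, with 95% confidence intervals from the fit over all probes. Red marks adjusted p under 0.05, which Mbp A_52_P604195 alone reached, at 24 and at 29 against 3 months. At 29 against 3 months the 8 other probes lie left of 0, most with intervals over 2 units wide.

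Single arrays weighed on these calls. Without replicate 4 of 29 months, the array where the 6 genes were highest at that age, 4 of 7 members were called at 29 against 3 months. These were Mbp and, all lower, Prx (−2.83, limma adjusted p = 0.0415), S100b (−2.80, adjusted p = 0.0336) and Pmp22 (−2.26, adjusted p = 0.0364). Without replicate 1 of 3 months 2 were called (Pmp22 at −2.28, adjusted p = 0.0372), and without replicate 2 of 3 months 3 were called (Pmp22 at −2.25, adjusted p = 0.0438, and Egr2 at −2.28, adjusted p = 0.0446). Over all 21776 genes, 2185 to 3544 were called in this comparison when an array was left out, beside 3190 with every array. Leaving out a high array of 29 months or a low one of 3 months makes a fall larger by itself. These added calls are therefore no separate support for a fall. Normexp background correction, which models each spot as signal plus noise, also brought Pmp22 past the threshold (−1.84, adjusted p = 0.0373). The call of Mbp at 29 against 3 months held when each of the 16 arrays was left out in turn, at differences of 1.59 to 2.48, and was smallest without replicate 1 of 29 months. Its call at 24 against 3 months was lost in 14 of the 16 cases, all but those without replicate 1 or 3 of 29 months, at differences of 1.33 to 1.63. Its call at 29 against 15 months was lost in 4, those without replicate 1, 2 or 3 of 15 months or replicate 2 of 29 months. Without the 4 arrays of lowest weight all 3 calls were kept. The step from 24 to 29 months was then positive for each of the 6 genes, from 0.02 (Mag) to 0.99 (Prx), and none was called. Those arrays included replicates 2 and 4 of 24 months, the highest of that age for each of the 6 genes. With any single array left out, the step stayed negative for all 6, at −1.54 to −0.41 for Prx. Its sign for these genes thus depends on the 4 arrays taken out together, not on any 1 array.

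Within an age, all 7 members had a larger spread than most genes. The pooled SD within ages was 1.35 for Prx, above that of 99.7% of all genes, 1.34 for S100b (99.7%), 1.03 for Egr2 (98.8%) and 0.98 for Pmp22 (98.6%). The Mbp probes A_52_P329451 (0.85) and A_52_P604195 (0.62) were above 97.3% and 93.0% of genes, Mag (0.56) and Sox10 (0.46) above 91.0% and 86.0%, and the median over all genes was 0.23. The 15 pairs among the 6 genes other than Mbp correlated at r = 0.790 to 0.981 over 16 arrays. After each age's mean was taken out, r was 0.689 to 0.987, so the genes moved together between arrays of the same age. Prx and S100b, the closest pair, gave r = 0.981 (Spearman's rho 0.982), 0.974 within slide 1, 0.978 within slide 2 and 0.974 without the 2 arrays farthest from the median of Prx. Mbp A_52_P329451 belonged with them (r = 0.936 with Prx and 0.910 after removal of age means), whereas A_52_P604195 gave r = −0.510 with Prx and 0.0033 after removal of age means. These correlations share arrays and are descriptions without a test.

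**Figure D4:**
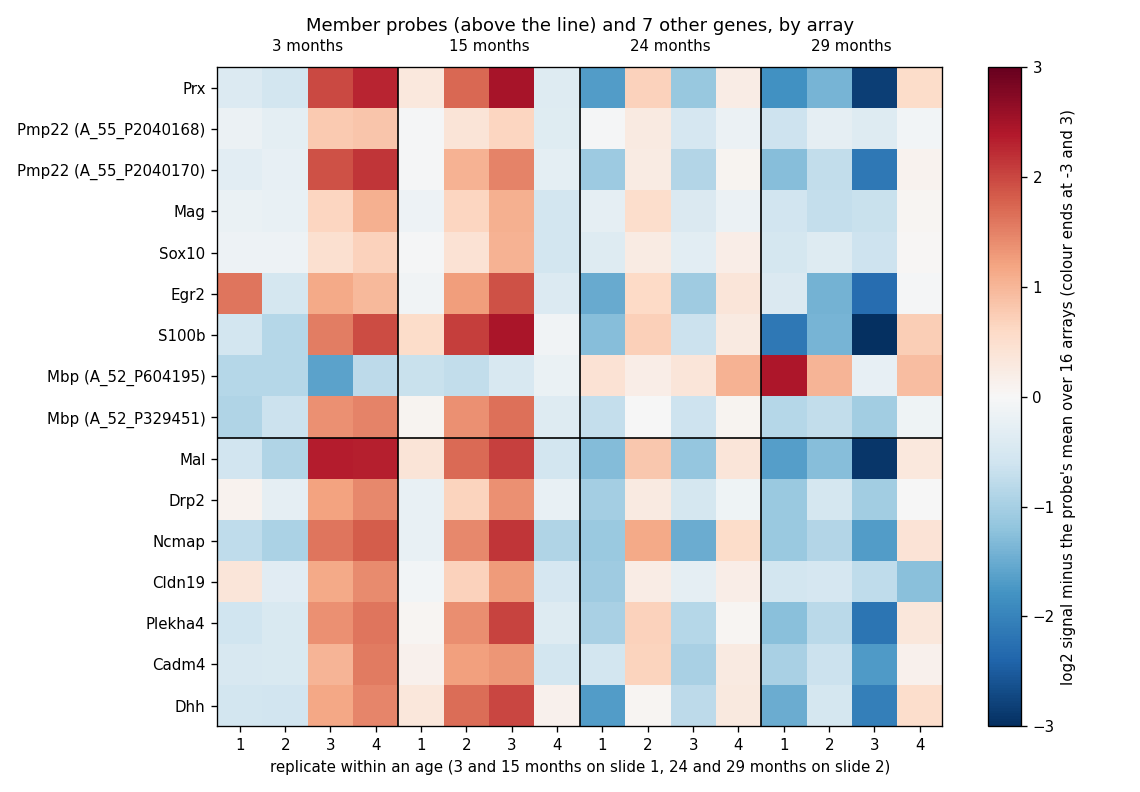
Log2 signal of each probe minus its mean over 16 arrays, in columns by age and replicate, for the 9 kept member probes (above the line) and 7 other genes named in the text (below it). Red is above and blue below a probe's own mean. The same columns are red from Prx to Dhh (replicates 3 and 4 at 3 months, 2 and 3 at 15 months), and Mbp A_52_P604195 is the row that departs from them.

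The genes whose pattern was most like a member's were sought among 12892 named genes by Pearson's r over 16 arrays. For Prx they were Plekha4 (0.991), Mal (0.989), a myelin proteolipid, and Cadm4 (0.971), an adhesion molecule that Schwann cells use to contact axons. Those most like Pmp22 included Mal (0.980) and Plekha4 (0.966), and S100b was closest to Plekha4 (0.979), Mal (0.971) and Dhh (0.967), the hedgehog signal that Schwann cells send to the nerve sheath. Mag was closest to Fam178b (0.975), Cmtm5 (0.959) and Gas2l3 (0.956), and Sox10 to Fam178b (0.960), Ncmap (0.957) and Aatk (0.951). Egr2 had the loosest company, with Scd2 (0.910), Zfp536 (0.900) and Gatm (0.894). For the mean of the 7 members the order was Plekha4 (0.984), Mal (0.976), Cadm4 (0.970), Aatk (0.969) and Paqr6 (0.967). Mal, Cadm4 and Ncmap stand on the list of peripheral myelin proteins, and 11 of its 18 measured genes had r above 0.8 with Prx, a level that 0.422% of all genes reached.

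Mbp A_52_P604195 kept other company: Zap70 (r = 0.936), a kinase of the T-cell receptor, Ccl8 (0.936), a chemokine, and Fyb (0.935), an adaptor protein of T cells. Zap70 was at 2.20, −0.35, −0.79 and −0.29 on the 29-month arrays and at −1.78, −1.82, −2.41 and −2.40 on those of 3 months, so the 29-month array highest for the Mbp probe was also highest for Zap70. Of 16 listed T and B lymphocyte markers 9 were measured. Of these 1, Jchain, which links antibody subunits, was higher at 29 than at 3 months (3.26, limma adjusted p = 0.0284), with 0 lower. Of all genes 14.6% were called in that comparison. Jchain was well above background on 12 of 16 arrays, with a mean of −3.89 at 3 months, so the size of its rise is uncertain. Cd3d, Cd3g, Cd8a, Cd8b1, Trbc1, Cd79a and Ms4a1, which define these cells, were not among the kept probes. The mean of the 9, each relative to its own mean, was −0.48 to −0.32 at 3 months and −0.67 to −0.27 at 15 months. At 24 months it was −0.23 to 1.33 and at 29 months −0.21 to 2.50. It was highest on replicate 1 of 29 months and replicate 4 of 24 months, and correlated with the Mbp probe at r = 0.79 (0.61 without the 2 farthest arrays), at −0.02 within slide 1 and 0.79 within slide 2. Without replicate 1 of 29 months the Mbp difference was 1.59, as given above. The part of lymphocytes in the Mbp result was not tested.

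Among the other genes of the myelin sheath, 3 of 18 were lower and 1 was higher at 29 than at 3 months, with a median of −0.60. Of all genes 14.6% were called in either direction. Among those lower were Cd9 (−1.19, limma adjusted p = 0.037), a tetraspanin, and Cldn19 (−1.42, adjusted p = 0.0361), a tight-junction protein of the sheath. Cldn19 was well above background on 13 of 16 arrays, with a mean of −3.53 at 29 months, so the size of its difference is uncertain. Cryab, a small heat-shock protein that muscle fibres also make, was higher (0.77, adjusted p = 0.0319). Mal differed by −2.19 (adjusted p = 0.115) and Drp2, the partner of periaxin, by −1.30 (adjusted p = 0.0614), and neither passed. Drp2 had levels of −0.49, −0.88, 0.61 and 0.84 at 3 months and −1.71, −1.13, −1.65 and −0.63 at 29 months, again with replicate 4 of 29 months inside the younger range. The mean of the 18 genes, each relative to its own mean, was −0.41 to 1.05 on arrays of 3 months and −0.92 to 0.06 on those of 29 months. It correlated with Prx at r = 0.98.

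Other regulators and signals of Schwann cells were measured too. Their counts at 29 against 3 months stand beside 14.6% of all genes called in either direction. Of 11 measured Schwann cell transcription factors 2 were lower at 29 than at 3 months, Nab2 (−0.97, limma adjusted p = 0.00693), the co-regulator that binds EGR proteins, and Nfatc4 (−0.49, adjusted p = 0.031), and 0 were higher. Of 13 receptors and signals 2 were lower, Lamc1 (−0.94, adjusted p = 0.00568), a laminin chain of basal laminae, and Itga6 (−0.76, adjusted p = 0.0386), a laminin receptor, and 0 were higher. The neuregulin receptors differed by −0.03 (Erbb3, adjusted p = 0.985) and −0.02 (Erbb2, adjusted p = 0.949) at 29 against 3 months. Ngfr, the p75 neurotrophin receptor of non-myelinating and repair Schwann cells, was lower at 15 than at 3 months, within a slide (−1.25, adjusted p = 0.047). It was at −0.68, −0.98, 0.35 and −0.84 at 3 months and at −1.78, −1.77, −1.31 and −2.31 at 15 months, and the groups did not overlap. Of 8 repair and non-myelinating genes 3 were higher at 29 than at 3 months (Jun by 1.33, Gdnf by 1.86, Bdnf by 0.79) and 1 was lower (Cspg4, −1.08). Jun and Bdnf are made by many cell types, and muscle fibres make Gdnf as well. The mean of the transcription factors gave r = 0.31 with Prx (0.38 within slide 1 and 0.02 within slide 2), and Nfatc4 alone gave 0.05. For the means of the receptors and signals and of the repair genes r was 0.81 and −0.15. Which cells the called genes of these lists came from was not tested.

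Sterol synthesis feeds the myelin membrane and also runs in every other cell. Of 19 measured genes 8 were lower at 29 than at 3 months and 0 higher, where 14.6% of all genes were called in either direction. Among the 8 were Dhcr7 (−1.06, limma adjusted p = 0.000743), of the last step to cholesterol, and Idi1 (−0.57, adjusted p = 0.00222), of the early isoprenoid steps. Scd2, a fatty acid desaturase, was also lower (−2.25, adjusted p = 0.0329) and had r = 0.960 with Prx. The mean of the list correlated with Prx at r = 0.84, 0.78 within slide 1 and 0.75 within slide 2.

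Markers of neighbouring tissues were set beside the members. All counts are for 29 against 3 months, where 14.6% of all genes were called in either direction. Of 8 measured genes of axons and motor nerve terminals 0 were called at 29 against 3 months in either direction, and Nefl, Nefm and Nefh, the neurofilaments, were not among the kept probes. The mean of the 8 correlated with Prx at r = 0.36, and at 0.58 after removal of age means (0.38 within slide 1 and 0.72 within slide 2). Of 8 perineurial and endoneurial markers 0 were called, and their mean gave r = 0.63 (0.51 after removal of age means). Of 13 adipocyte markers 2 were higher (Plin4 and Cidea) and 0 lower, and their mean, at its highest (2.03) on replicate 4 of 24 months, gave r = 0.15 with Prx. For adipocyte markers r was 0.26 after removal of age means, −0.37 within slide 1 and 0.76 within slide 2. Of 15 fibroblast and matrix markers 7 were lower and 0 higher, among them Sparc (−1.04) and Col1a1 (−2.59). Their mean, each gene relative to its own mean, was 0.43 to 1.02 at 3 months and −1.60 to 0.43 at 29 months. It gave r = 0.45 with Prx and 0.14 after removal of age means. Of 6 tendon markers 3 were lower, among them Kera (−3.79) and Fmod (−1.17). Kera was well above background on only 4 of 16 arrays, with means of −1.83 at 3 months and −5.62 at 29 months. It was kept through 1 age alone, and the size of its difference is uncertain. Of 12 endothelial markers 3 were lower, among them Tek (−0.96) and Cdh5 (−1.02), with 0 higher in either list. Of 10 macrophage markers 0 were called, and of 5 melanocyte markers, cells that share SOX10 with glia, 1 was higher (Mitf, 0.55). Of the fibre genes 0 of 14 were called. The part of these tissues in the members' differences was not tested.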

How the data were processed

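RNA of 16 gastrocnemius samples was read on 1-colour Agilent arrays. Per the file headers, the deposited scanner files hold spot intensity from Feature Extraction 10.7.1.1, with background subtracted and spatial detrending, and no scaling between arrays. A deposited table of log2 values, whose centring is not stated, followed feature number (r 0.985 to 0.993 across probes) rather than its own probe names (0.0027 to 0.0181). It was joined by feature number and served only as an alternative, without Mbp probe A_55_P1992160, which it does not cover. Column medians were 4.55 to 4.69.

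For 55588 probes, log2 signal was taken relative to the array's own 75th percentile over probes. Probes well above background on all 4 arrays of an age were kept (28433), and a gene was its kept probe of highest mean. Accessions were named through RefSeq GRCm38.p6; the headers name another build, so gene coordinates of that table are not given. Age means were fitted in limma 3.58.1 (R 4.3.3; 12 residual and 2.73 prior degrees of freedom). Tests were two-sided, and p-values were adjusted by Benjamini-Hochberg across 21776 genes, or across 28433 probes where a probe that does not stand for its gene is given. The fit was checked on simulated data.

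The members, the 16 gene lists and the tests were chosen with earlier results of these data known. The genes named were all members, in each list up to 2 called genes of smallest p, and the 3 to 5 genes most like a member, with further list genes named after their values were seen. A few genes selected this way are not reported here. Alternatives were other scalings, background correction, filters, probe summaries and models, a block on replicate number, and leaving out arrays.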

Additional observations from a re-analysis of the deposited data

Results flagged for a closer look

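In 40 groups of 4 arrays (10 probes at 4 ages), the gap of the highest or lowest array to its neighbour was set against the whole range of the group by Dixon's test at its 95% critical value. Chance passes about 1 in 20 such groups, and 2 of the 40 passed. On Mbp probe A_52_P604195 at 3 months, replicate 3 was at −2.20 and the other 3 arrays at −1.46 to −1.38, a gap of 0.903 of the range. Without that array the rise to 29 months was smaller and still past the threshold, at 1.86 (limma adjusted p = 0.0137). On the dim Mbp probe A_55_P1992160 at 3 months, replicate 1 was at −4.64 and the others at −5.48 to −5.36, a gap of 0.857 of the range, with 0 of the 4 arrays well above background.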

How the results depend on the processing

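Of 2038 values of members recomputed under the alternatives, 1910 kept their direction and their side of the threshold, 26 lost a call, 9 gained one, 93 uncalled values changed sign and 0 called values did. At 24 against 3 months, 0 of 7 members were called with quantile normalization, with scaling by the median, without a filter on dim probes and with the mean over probes, and 0 to 1 when an array was left out. At 29 against 3 months, 2 were called with normexp background correction, 0 with the mean over probes, and 1 to 4 when an array was left out. At 29 against 15 months, 0 were called without a filter on dim probes, with the mean over probes and with only the ages compared in the fit, and 0 to 3 when an array was left out. Over all genes, 453 to 1282, 2185 to 3544 and 829 to 1861 were called in these 3 comparisons when an array was left out. The cause of the changed calls was not tested, beyond that fewer arrays or more genes enter some of these fits and that the mean over probes joins probes of opposite direction. With the replicate block, 1 of 7 members was called at 29 against 3 months, as without it, and no member's call changed. Samples that share a number deviated together no more than others (24 pairs, r −0.471 to 0.303, median 0.0012), so the numbers were not taken as pairs. Slide as a random block was not run, because each age lies on 1 slide. Normexp used median spot signals. Egr2 and S100b were not well above background on 1 array of 29 months, so their lowest values there are uncertain.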
